A study of Rattus norvegicus with 12 samples.

Results

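The intermediate filament genes examined here were Vim, Nes, Des, Krt8, Krt18, Krt19, Prph, Nefl, Nefm and Lmna, chosen by name as filament genes of mesenchymal, epithelial, muscle and neuronal cells. All 10 were found among the 21556 genes of the expression table, and 4 of them (Vim, Lmna, Krt8 and Des) reached a mean of 0.5 FPKM, the minimum set for testing, as did 11451 genes in all. FPKM scales the fragments of a gene by its length and by the size of the library, so genes can be compared with each other on it. The cells were ND7/23, a hybrid line obtained by fusing a mouse neuroblastoma with neurons of the rat dorsal root ganglion, which is used as a stand-in for sensory neurons. All groups were sampled at 6 h and differed in the agents given: none (control), menthol at 100 μM, Wnt3a at 100 ng/ml, or the 2 together. Menthol opens the cold-gated channel TRPM8, and Wnt3a is a secreted protein that stabilises β-catenin. Each group had 3 libraries, and the study used them to ask how menthol acts on Wnt signalling. The labels do not say whether the 3 libraries came from separate cultures, so p-values measure the spread between these libraries, which may be technical. All 12 libraries came from 1 hybrid line whose reads were aligned to the rat genome, so a low level and poor alignment of transcripts from the mouse parent cannot be told apart.

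Intermediate filaments are the rope-like part of the cytoskeleton, and which of their genes a cell uses is a classic sign of its lineage. Vimentin (Vim) is the type III filament of mesenchymal cells, and desmin (Des) is its relative in muscle. Nestin (Nes) marks neural and muscle progenitors, peripherin (Prph) and the neurofilament subunits (Nefl, Nefm) mark neurons, and peripherin is especially abundant in dorsal root ganglion neurons. Keratins form filaments only as pairs of a type II and a type I chain, and Krt8 with Krt18 or Krt19 is the pair of simple epithelia. Lamin A/C (Lmna) lies apart from the rest, under the inner nuclear membrane.

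The RefSeq promoter table held 7 of the 10 genes, in build GRCr8. The 250 bases before the annotated start are shown for 4 of them, because they set the most abundant filament gene beside the keratin pair and the sensory neuron filament discussed next. Each is written 5′ to 3′ on the strand of the gene, and capitals mark the TATA motif (TATAAA), the CAAT box (CCAAT) and the GC box (GGGCGG), searched on both strands.
Vim (chr17:81577011-81577260, plus strand): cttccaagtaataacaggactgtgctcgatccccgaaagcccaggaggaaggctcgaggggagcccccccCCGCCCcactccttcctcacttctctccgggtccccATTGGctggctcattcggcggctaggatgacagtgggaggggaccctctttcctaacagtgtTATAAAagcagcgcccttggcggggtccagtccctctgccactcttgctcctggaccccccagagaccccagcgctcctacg
Krt8 (chr7:135010340-135010589, minus strand): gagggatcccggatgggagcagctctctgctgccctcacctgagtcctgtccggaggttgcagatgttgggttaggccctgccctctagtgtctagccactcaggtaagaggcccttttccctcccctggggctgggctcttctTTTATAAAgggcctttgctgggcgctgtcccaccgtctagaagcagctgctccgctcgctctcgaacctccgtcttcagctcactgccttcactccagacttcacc
Krt18 (chr7:135035918-135036167, plus strand): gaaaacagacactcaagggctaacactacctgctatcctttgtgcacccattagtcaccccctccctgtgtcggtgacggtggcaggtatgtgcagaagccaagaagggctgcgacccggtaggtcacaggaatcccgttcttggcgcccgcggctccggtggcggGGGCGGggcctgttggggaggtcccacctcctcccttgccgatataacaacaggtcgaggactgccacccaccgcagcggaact
Prph (chr7:132097039-132097288, plus strand): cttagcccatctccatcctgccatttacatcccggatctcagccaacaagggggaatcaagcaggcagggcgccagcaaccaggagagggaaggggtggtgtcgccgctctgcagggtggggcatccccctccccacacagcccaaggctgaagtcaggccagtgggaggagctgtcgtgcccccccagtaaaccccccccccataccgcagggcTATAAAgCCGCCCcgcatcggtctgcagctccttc
Over 33465 promoters of the same length, 12.9% held the TATA motif, 34.0% the CAAT box and 30.5% the GC box. The Vim promoter held all 3, with the TATA motif starting 82 bases before the start. Krt8 held the TATA motif on both strands in 1 overlapping run, whereas Krt18 held only a GC box, and Prph held a TATA motif 35 bases and a GC box 28 bases before its start. Among the 7 promoters (these 4 with Lmna, Nes and Des), the TATA motif was in 3, the CAAT box in 1 and the GC box in 6. The TCF/LEF motif CTTTGAT was in 0 of the 7, against 3.15% of all promoters, and the AP-1 motif TGACTCA was also in 0 of the 7, against 4.05%. Krt8 and Krt18 are on the same chromosome in opposite orientations. These matches describe letters and no binding was measured.

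Vim was by far the most abundant of the genes. Its level averaged 884 FPKM over the 12 libraries, which placed it at rank 71 of 21556 genes, and its reads made up 0.148% to 0.17% of all reads on genes. Lmna followed at 151 FPKM (rank 440). Krt8 averaged 2.19 FPKM and Des 0.813 FPKM, both below the median of 10.4 FPKM over the genes that reached the minimum. The lowest Vim library (824 FPKM) stood above the highest Lmna library (159 FPKM), and the mean level of Vim was 5.83 times that of Lmna. Lmna was in turn 69.1 times Krt8, Krt8 was 2.70 times Des, Des was 2.17 times Nes and Nes was 6.17 times Nefl, with no overlap between neighbours over the 12 libraries in any of these steps. Below Nes the order was not settled, because the ranges of Nefl, Prph, Nefm, Krt18 and Krt19 all included 0.

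**Figure D1:**
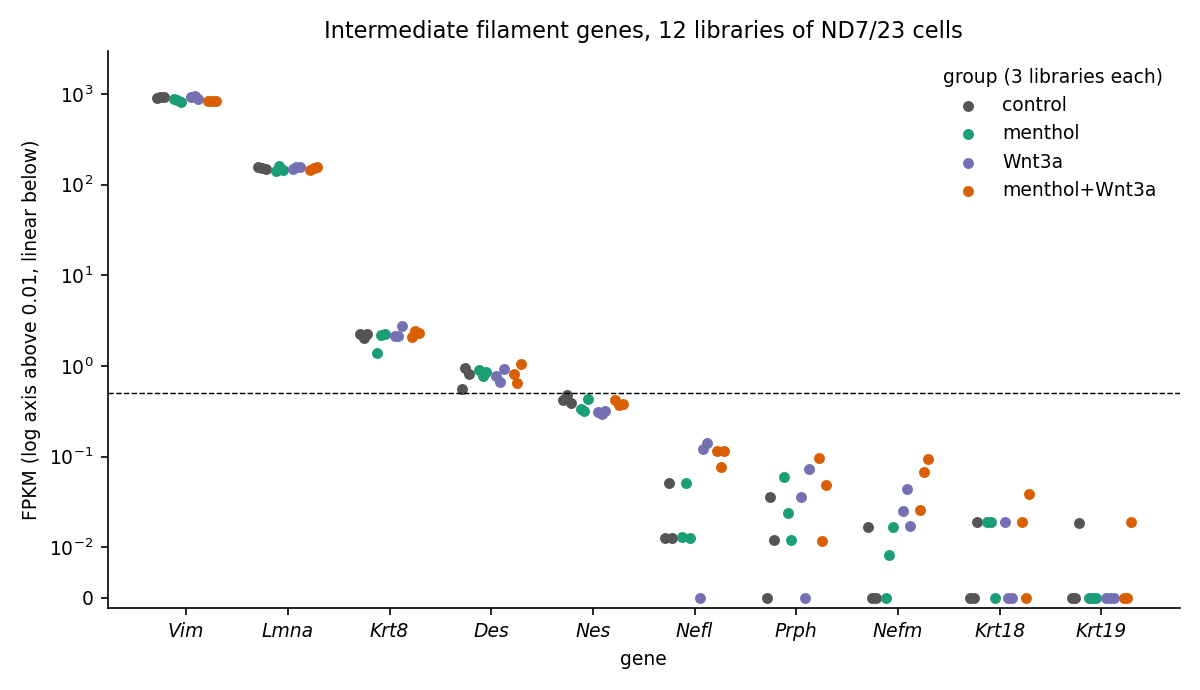
FPKM of the 10 intermediate filament genes (log axis above 0.01, linear below), 1 point per library, coloured by group, with a dashed line at the minimum of 0.5 FPKM. Vim and Lmna lie far above the line, Krt8 and Des just above it, Nes just below it at 0.296 to 0.476 FPKM, and the neuronal filaments and type I keratins near 0.

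The epithelial members were split. The type II chain Krt8 was measured in every library, with 119 to 235 reads. Its usual partner Krt18 had 7 reads over all 12 libraries and at most 2 in any one, and Krt19, the other simple type I chain, had 2 reads in all. For both type I genes every library was at or below 3 reads, which corresponds to 0.0564 to 0.0594 FPKM for Krt18 and 0.0560 to 0.0589 FPKM for Krt19, so no level above the counting limit was detected. The same imbalance held over the keratins as a class, an extension made after these values were seen. The 14 type II keratins in the table summed to 17.5 ± 1.96 FPKM (SD, n = 12 libraries) and the 11 type I keratins to 0.810 ± 0.186 FPKM. In no library was the type II sum less than 15.4 times the type I sum. Most of the type II sum was Krt7, the simple-epithelial type II chain of ducts and glands, at 13.2 FPKM (10.7 to 16). Krt80 averaged 1.61 FPKM and Krt23, a type I chain, 0.30 FPKM. The stratified keratins in the table, 13 of 40 listed, had none at the minimum, with Krt10 (0.459 FPKM), Krt79 (0.337 FPKM) and Krt6a (0.0328 FPKM) as the highest.

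Other epithelial genes were as uneven. Of 19 epithelial markers in the table, 4 reached 0.5 FPKM, led by the protease inhibitor gene Spint2 (26.3 FPKM), the tight junction claudin Cldn4 (25.2 FPKM) and the transcription factor Grhl1 (0.821 FPKM). E-cadherin (Cdh1), the defining adhesion molecule of epithelia, averaged 0.0277 FPKM. Of 11 desmosome genes, which anchor keratin filaments at cell contacts, 5 reached the minimum. The plaque genes Pkp1 (48.9 FPKM), Jup (7.92 FPKM) and Pkp4 (6.32 FPKM) were the highest, while Dsp, which joins the plaque to the filaments, averaged 0.0193 FPKM. The plakin linkers of filaments were present, with Ppl at 59.7 FPKM, Plec at 44.7 FPKM and Macf1 at 26.2 FPKM among 6 of 8 at the minimum.

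The mesenchymal company of Vim was fuller. Of 20 mesenchymal genes 15 reached the minimum, with S100a4 at 930.0 FPKM, the collagen crosslinker Loxl1 at 227 FPKM and the surface glycoprotein Thy1 at 141 FPKM. Of 10 transcription factors of the epithelial-mesenchymal transition 8 did, led by Twist1 (45.3 FPKM), Prrx1 (30.2 FPKM) and Zeb2 (18.8 FPKM). The listed mesenchymal genes Fap (0.00952 FPKM), Lum (0.0886 FPKM) and Postn (0.176 FPKM) were below it. The median level over the mesenchymal list was 6.63 FPKM, against 0.0277 FPKM over the epithelial list. Among all 21556 genes the median was 0.890 FPKM.

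The labelled identity, a sensory neuron model, was checked against its own filaments and markers. Peripherin, the filament of such neurons, had 34 reads over the 12 libraries and averaged 0.0342 FPKM. Nefl had 56 reads (0.0606 FPKM) and Nefm 37 reads (0.0264 FPKM). The heavy neurofilament subunit Nefh, which was not among the 10, stood apart at 5.93 FPKM (5.60 to 6.42). Neurofilaments assemble on the light chain Nefl. Internexin (Ina), another neuronal filament, averaged 0.00457 FPKM.

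Of 19 pan-neuronal markers 5 reached the minimum, led by the ubiquitin hydrolase Uchl1 (101 FPKM), Ncam1 (7.71 FPKM) and the microtubule gene Map2 (6.70 FPKM). The neuronal tubulin Tubb3 averaged 0.0224 FPKM, Stmn2 0.0189 FPKM, Elavl4 0.00389 FPKM and the nuclear marker Rbfox3 0.0136 FPKM. Of 19 sensory neuron markers in the table only the LIM factor Isl1 reached the minimum, at 13.2 FPKM, and the next were Avil (0.403 FPKM) and P2rx3 (0.247 FPKM). The sodium channel Scn10a, the factor Pou4f1 and the neuropeptide gene Calca, which mark sensory neurons, averaged 0.000223 FPKM (Scn10a), 0.00742 FPKM (Pou4f1) and 0.0228 FPKM (Calca). Trpm8, the receptor that menthol opens, averaged 0.234 FPKM (0.189 to 0.307). These values go against the profile of a sensory neuron, with the limit on mouse transcripts given above, and the cells are called ND7/23 cells below. Of 11 neuroblastoma genes in the table, Hand2 (16.4 FPKM) and Gata3 (1.07 FPKM) reached the minimum, and the third was Ednrb (0.0430 FPKM).

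**Figure D2:**
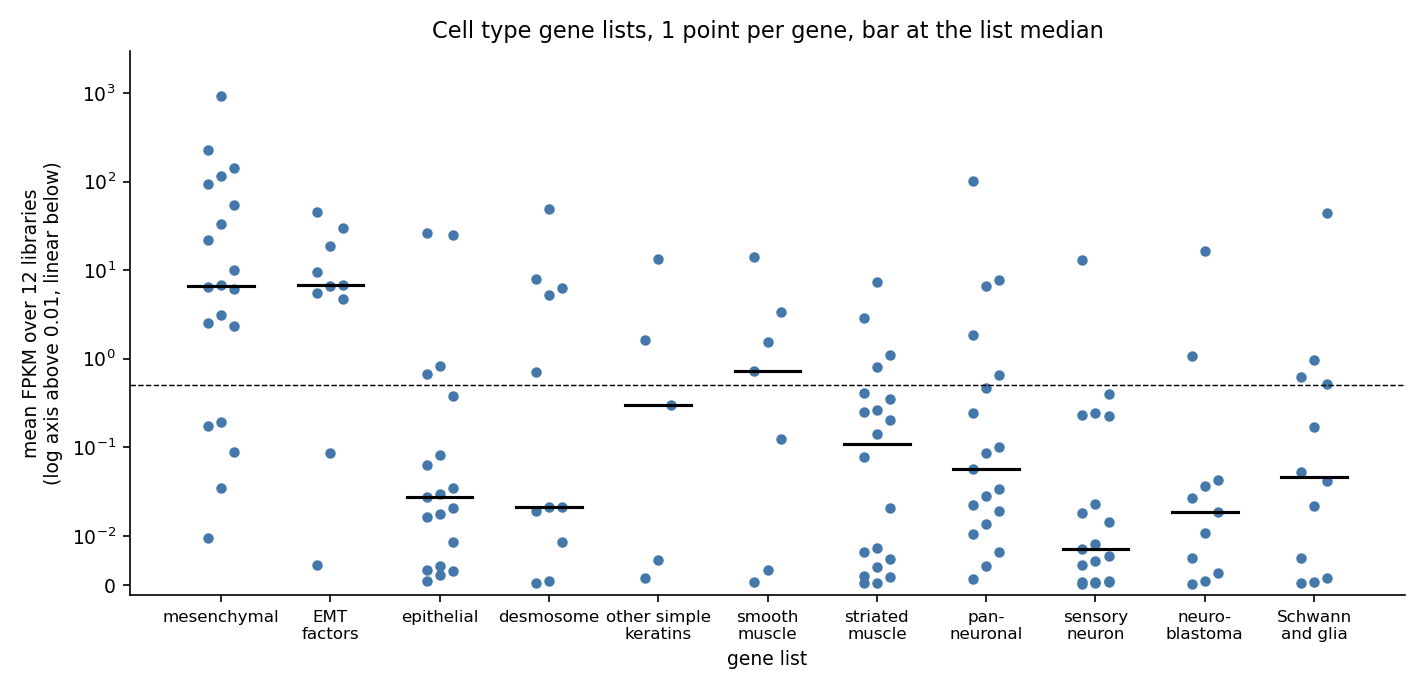
Mean FPKM over the 12 libraries (log axis above 0.01, linear below) for each gene of 11 cell type lists, 1 point per gene, with a bar at the list median and a dashed line at 0.5 FPKM. The mesenchymal list and the factors of the epithelial-mesenchymal transition (EMT) have medians of 6.63 and 6.77 FPKM, while the pan-neuronal and sensory neuron medians are 0.0567 and 0.00742 FPKM.

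Nestin was present at a low level. Its 73 to 121 reads per library gave a mean of 0.374 FPKM, under the minimum for testing. Of 5 neural progenitor genes in the table only Sox2 reached the minimum, at 53.0 FPKM, followed by Notch1 (0.401 FPKM) and Msi1 (0.0552 FPKM). Desmin, with 47 to 86 reads per library, was matched by few other muscle genes. Of 20 striated muscle genes 4 reached the minimum, led by Tnnt3 (7.38 FPKM), Cryab (2.91 FPKM) and Tnnt2 (1.09 FPKM), and of 7 smooth muscle genes 4 did, led by Smtn (14.1 FPKM), Tagln (3.38 FPKM) and Myh11 (1.56 FPKM). Of the other type III and type IV filament genes, Sync (5.04 FPKM), Synm (1.94 FPKM) and the glial filament Gfap (1.34 FPKM) were above Des. Of 12 Schwann and glial genes 4 reached the minimum, with Pmp22 (44.2 FPKM) and Erbb3 (0.967 FPKM) among them. Among the immune genes Cd68 (1.16 FPKM) and Csf1r (0.957 FPKM) passed it, with Lyz2 at 0.350 FPKM. Among the endothelial genes Tek (3.08 FPKM) and Flt1 (0.881 FPKM) did, with Vwf at 0.307 FPKM. Ptprc, the defining immune gene, averaged 0.00339 FPKM.

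The nuclear lamina was complete. All 17 genes listed with Lmna reached the minimum, among them the DNA-bridging Banf1 (111 FPKM) and the B-type lamins Lmnb1 (31.9 FPKM) and Lmnb2 (11.2 FPKM), with the lamina-associated Tmpo at 29.5 FPKM. Lmna stood at 3.51 ± 0.168 times the summed B-type lamins (SD, n = 12 libraries), with a range of 3.31 to 3.83.

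For the comparisons, the calls followed the thresholds of the study's methods, an adjusted p under 0.05 and more than a 2-fold change, in a limma fit of log2(FPKM + 0.1) adjusted by Benjamini-Hochberg over 11451 genes. By this rule 0 of the 4 tested members were called in any of 8 comparisons. Few genes of any kind were called. Menthol against control called 0.00873% of genes, and Wnt3a against control 0.0175%. The contrast of all 6 libraries with menthol and all 6 without it, menthol pooled over Wnt3a, called 0.00873%, and the other 5 called 0%. At an unadjusted p under 0.05, Vim was the single member in the 4 comparisons of cells with menthol and cells without it, and 0 members were in the other 4. Of all tested genes, 9.34% were under this level for menthol against control, 14.5% for menthol added to Wnt3a, 13.5% for both agents against control and 15.5% for menthol pooled over Wnt3a. The voom test on reads recovered from the FPKM steps also called 0 members by the 2-fold rule. The comparisons that share a group are not independent of each other.

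Vim was lower in the cells given menthol. The 3 control libraries had 899.6, 919 and 929 FPKM, and the 3 menthol libraries had 883, 864 and 824 FPKM. With Wnt3a alone the values were 938, 948 and 891 FPKM, and with both agents 836, 844 and 827 FPKM. Every one of the 6 libraries with menthol lay below every one of the 6 without it, a pattern found in 0.742% of tested genes in this direction. The groups also did not overlap in each pair taken alone, but this was common. It happened in 8.38% of genes for menthol against control, in 8.57% when menthol was added to Wnt3a, and in 9.98% for both agents against control.

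Over the 6 libraries with menthol Vim averaged 846 ± 22.9 FPKM (SD, n = 6), against 921 ± 22.2 FPKM in the 6 without. The fitted change was −0.12 on the log2 scale (SE 0.022, 95% interval −0.17 to −0.07), so that Vim fell by 8.11%, with an adjusted p of 0.0180 in limma. On the adjusted p alone 1.15% of tested genes passed in this comparison, and Vim was the single member among them. The call was lost without control replicate 2 (adjusted p = 0.0539), without control replicate 3 (0.0641), without Wnt3a replicate 1 (0.0612), and with no FPKM minimum (0.0789).

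In the single pairs Vim did not pass in this fit. In 2 of the pairs it did in voom. The voom adjusted p was 0.00631 for menthol added to Wnt3a, where 1.25% of tested genes passed in voom. It was 0.00689 for both agents against control, where 2.28% passed in voom. In this second pair Vim also passed with only those 2 groups in the limma fit (0.0494). Its log2 change was −0.10 for menthol against control (95% interval −0.16 to −0.03, limma adjusted p = 0.370), where 0.105% of genes passed. It was −0.15 when menthol was added to Wnt3a (−0.21 to −0.08, limma adjusted p = 0.0836), where 0.0524% passed. For both agents against control it was −0.13 (−0.20 to −0.07, limma adjusted p = 0.0745), where 0.83% passed. Whether menthol acted differently with Wnt3a was tested as the interaction, and the estimate was −0.05 (−0.15 to 0.04, limma adjusted p = 0.826), with 0% of genes passing.

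Wnt3a gave no such separation. Pooled over menthol, the Vim change with Wnt3a was −0.01 (−0.06 to 0.04, limma adjusted p = 0.875), with the 6 Wnt3a libraries at 881 ± 53.4 FPKM and the 6 others at 886 ± 38.6 FPKM (SD). On the adjusted p alone 0.803% of genes passed for Wnt3a pooled over menthol, 0.437% for Wnt3a alone and 0.0961% when Wnt3a was added to menthol, and none of the 4 tested members was among them.

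**Figure D3:**
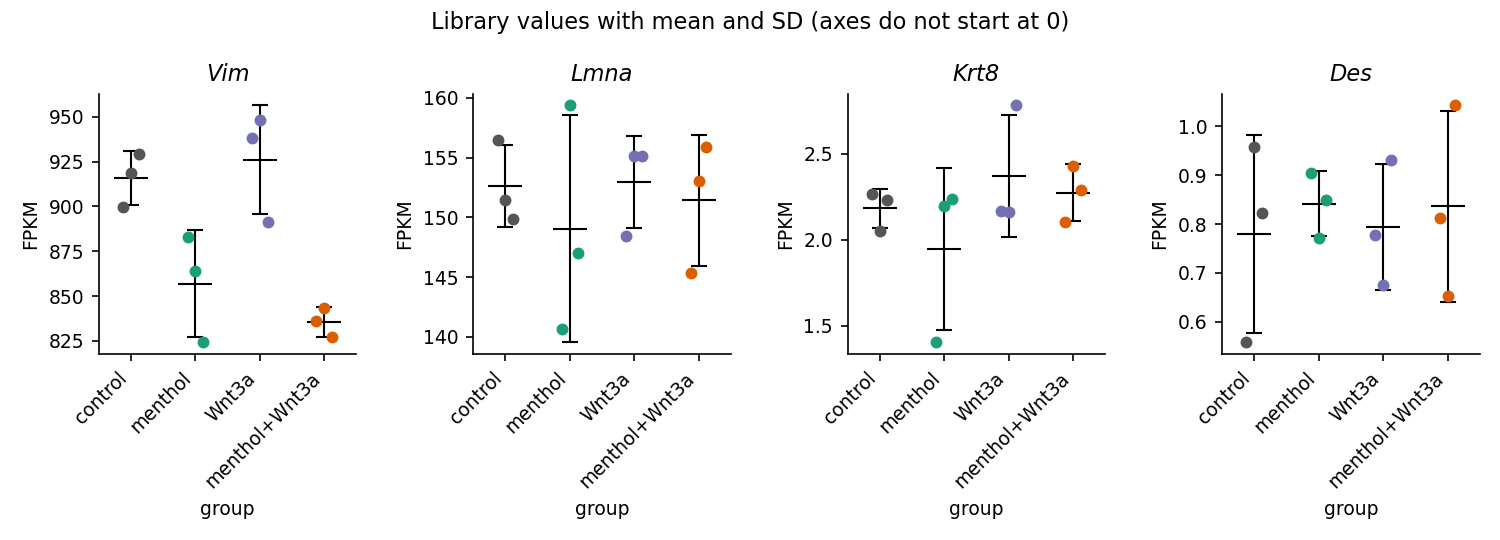
FPKM of Vim, Lmna, Krt8 and Des in each library (points) by group, with the group mean and SD (bars, n = 3), on axes that do not start at 0. For Vim both groups with menthol (824 to 883 FPKM) lie below both groups without it (891 to 948 FPKM), and for the other 3 genes the groups overlap.

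Lmna, the other abundant member, was even across the groups. Its control libraries had 156, 151 and 149.9 FPKM, and the menthol libraries 141, 159 and 147 FPKM. The Wnt3a libraries had 148, 155 and 155 FPKM, and those with both agents 145, 153 and 156 FPKM. All 4 groups overlapped. The pooled menthol change was −0.03 on the log2 scale (95% interval −0.09 to 0.04, limma adjusted p = 0.737) and the pooled Wnt3a change 0.01 (−0.05 to 0.08, limma adjusted p = 0.877), and both intervals are narrow and include 0. The coefficient of variation over the 12 libraries was 3.57% for Lmna and 5.04% for Vim.

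Krt8 had 2.27, 2.05 and 2.23 FPKM in control cells. With menthol the libraries had 1.40, 2.20 and 2.24 FPKM, where menthol replicate 1 was the lowest of the series for Krt8 and also for Lmna. With Wnt3a the values were 2.17, 2.16 and 2.78 FPKM, and with both agents 2.10, 2.43 and 2.29 FPKM. The groups overlapped. The pooled change was −0.12 with menthol (−0.35 to 0.11, limma adjusted p = 0.643) and 0.17 with Wnt3a (−0.06 to 0.40, limma adjusted p = 0.508).

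Des had 0.558, 0.957 and 0.823 FPKM in control cells, so its own replicates spanned most of the range seen. The menthol libraries had 0.904, 0.772 and 0.850 FPKM. The Wnt3a libraries had 0.778, 0.674 and 0.931 FPKM, and those with both agents 0.812, 0.653 and 1.04 FPKM. The pooled change was 0.09 with menthol (−0.21 to 0.39, limma adjusted p = 0.811) and 0.01 with Wnt3a (−0.29 to 0.31, limma adjusted p = 0.988). At this depth the intervals of Krt8 and Des still include changes in both directions.

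**Figure D4:**
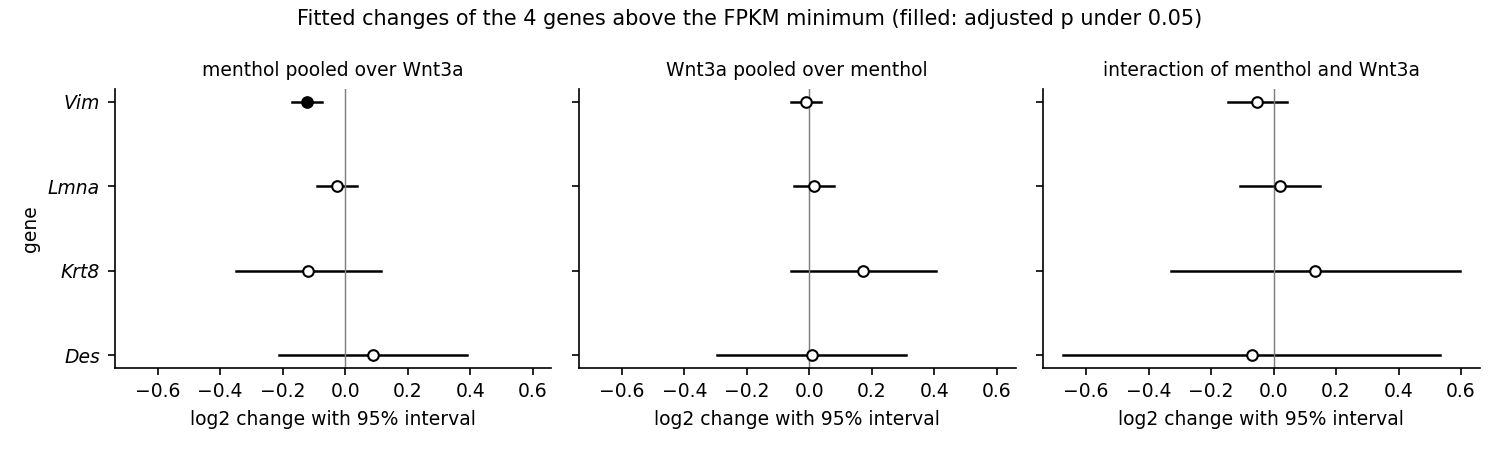
Fitted log2 changes (points) with 95% intervals (lines) of Vim, Lmna, Krt8 and Des for menthol pooled over Wnt3a, Wnt3a pooled over menthol and their interaction; a filled point marks an adjusted p under 0.05. The Vim change with menthol, −0.12, is the single filled point, and the intervals of Krt8 and Des are several times wider.

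The members under the minimum were also fitted with all 21556 genes and no minimum, where 0.264% of genes passed the adjusted p for Wnt3a pooled over menthol and 0.0418% for Wnt3a against control. Neither rule called any of them. The 2 neurofilament genes had more reads with Wnt3a. For Nefl the 3 control libraries had 1, 4 and 1 reads, the menthol libraries 1, 4 and 1, the Wnt3a libraries 0, 9 and 11, and the libraries with both agents 9, 6 and 9. That is 44 reads with Wnt3a and 12 without, although Wnt3a replicate 1 had none.

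For Nefm the libraries had 2, 0 and 0 reads in control cells, 0, 1 and 2 with menthol, 3, 5 and 2 with Wnt3a, and 3, 8 and 11 with both, or 32 with Wnt3a and 5 without. For Nefl the libraries with and without Wnt3a overlapped. For Nefm they met at 2 reads. In FPKM the lowest Nefm library with Wnt3a (0.0171, Wnt3a replicate 3) was just above the highest without it (0.0169, menthol replicate 3). The share of all genes with such a separation was not counted. The pooled Wnt3a change on log2(FPKM + 0.1) was 0.59 for Nefl (SE 0.21, unadjusted p = 0.0166, limma adjusted p = 0.345) and 0.42 for Nefm (SE 0.10, unadjusted p = 0.00218, limma adjusted p = 0.167). The pseudocount exceeds most of these levels, so the log2 values understate any difference, and neither passed. Without Wnt3a replicate 1 the adjusted p of Nefl was 0.0462. With voom on the reads the log2 change was 1.39 for Nefl (adjusted p = 0.491) and 2.31 for Nefm (adjusted p = 0.0566).

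Prph had 0, 3 and 1 reads in control cells, 5, 2 and 1 with menthol, 3, 0 and 6 with Wnt3a, and 8, 1 and 4 with both agents. Its groups overlapped, and the pooled Wnt3a change was 0.20 (SE 0.17, limma adjusted p = 0.777). Isl1, the one sensory neuron marker above the minimum, was measured far more deeply. It averaged 10.7 ± 0.753 FPKM in the 6 libraries without Wnt3a and 15.6 ± 1.15 FPKM in the 6 with it (SD), a log2 change of 0.54 (SE 0.051, limma adjusted p = 0.000173).

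Nes had 0.424, 0.476 and 0.388 FPKM in control cells and 0.315, 0.296 and 0.322 FPKM with Wnt3a, so these 2 groups did not overlap, as in 6.45% of all 21556 genes in this direction. The menthol libraries had 0.337, 0.318 and 0.436 FPKM and those with both agents 0.426, 0.370 and 0.378 FPKM, which overlapped with control. The change with Wnt3a against control was −0.36 (SE 0.14, unadjusted p = 0.0300, limma adjusted p = 0.405) and did not pass. The interaction was 0.45 (SE 0.20, unadjusted p = 0.0491, limma adjusted p = 0.863).

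**Figure D5:**
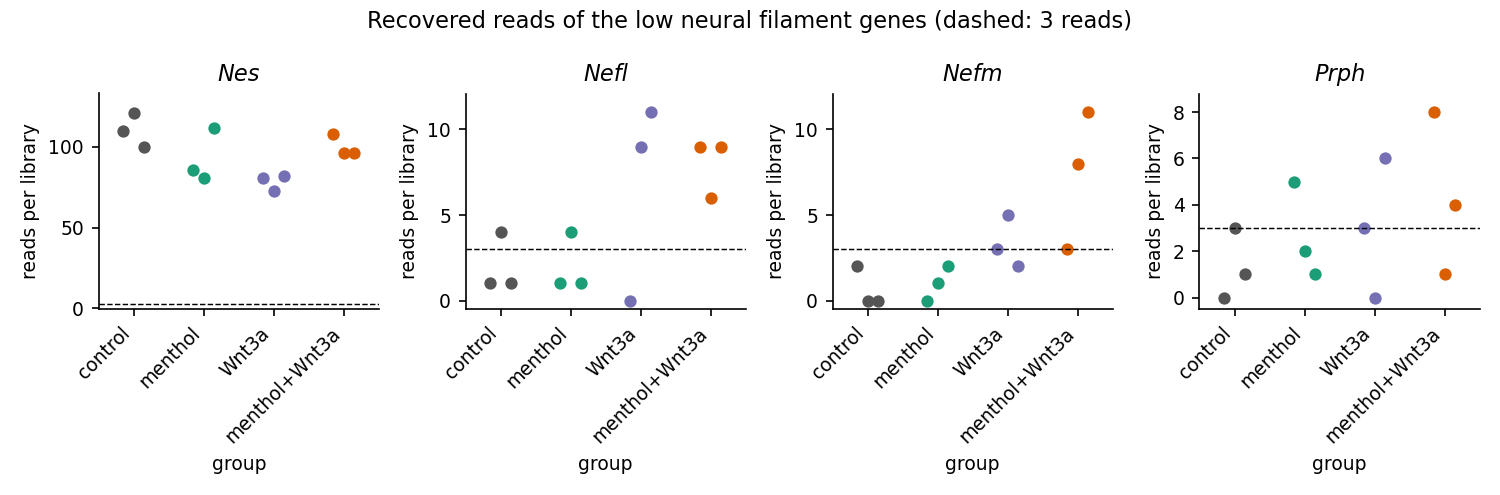
Reads per library of Nes, Nefl, Nefm and Prph by group, 1 point per library, with a dashed line at 3 reads. Nes has 73 to 121 reads in every library, whereas Nefl, Nefm and Prph have 0 to 11, with the higher Nefl and Nefm values in the groups given Wnt3a and Wnt3a replicate 1 at 0 for Nefl.

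Among the genes of the identity lists, lower values with menthol were found in lists of several cell types, but not in all. Higher with menthol were 4 of 6 tested filament linkers, 3 of 5 desmosome genes, 2 of 4 striated muscle genes and the 1 neural progenitor gene. Lower were 3 of 5 pan-neuronal genes and 5 of 8 factors of the epithelial-mesenchymal transition. The 1 sensory neuron gene and both neuroblastoma genes were also lower. Of all 11451 tested genes 50.6% were lower with menthol pooled over Wnt3a, with a median log2 change of −0.00098. All 4 tested epithelial genes were lower (median −0.12), as were 3 of 4 Schwann and glial genes (−0.12), both immune genes (−0.16) and both endothelial genes (−0.19), and in these lists 0 passed the adjusted p in limma, with 1 in each at an unadjusted p under 0.05. In voom 1 epithelial gene passed and 0 of the other 3 lists did. Of the 15 tested mesenchymal genes 13 were lower (median −0.08), with 6 at an unadjusted p under 0.05 and 3 past the adjusted p in voom. Of all tested genes 15.5% were at that unadjusted level, 2.64% passed in voom and 1.15% passed in limma. In limma 2 mesenchymal genes passed the adjusted p. These were the matrix protein gene Sparc, which fell by 0.14 on the log2 scale (limma adjusted p = 0.0144) from 98.1 ± 2.78 to 89.1 ± 2.16 FPKM (SD, n = 6), and the collagen chain Col1a2, which fell by 0.11 (limma adjusted p = 0.0251) from 119 ± 5.02 to 110.3 ± 1.53 FPKM. The Col1a2 call was lost without any 1 of 6 of the 12 libraries (adjusted p up to 0.0672). Col1a2 also passed for both agents against control, where it fell by 0.16 (limma adjusted p = 0.020). All 4 tested smooth muscle genes were lower (median −0.39), with 3 at an unadjusted p under 0.05 and 1 past the adjusted p in voom. Tagln, an actin-binding gene of contractile cells, passed in limma at −0.69 (SE 0.11, limma adjusted p = 0.0097), from 4.20 ± 0.781 to 2.55 ± 0.302 FPKM. The Tagln call was lost with no FPKM minimum (adjusted p = 0.0551).

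The keratin Krt7 fell with menthol while Krt8 did not pass. Krt7 had 13.2 to 16 FPKM in control cells and 10.7 to 11.7 FPKM with menthol, a log2 change of −0.40 (SE 0.062, limma adjusted p = 0.0310). This call was lost without any 1 of 7 of the 12 libraries, where the adjusted p ran up to 0.164. Pooled over Wnt3a it fell by 0.33 (SE 0.044, limma adjusted p = 0.0041), and the difference between Krt7 and Krt8 was not tested. The linker Ppl was higher with menthol, at 62.1 ± 1.74 against 57.3 ± 2.65 FPKM (SD, n = 6, log2 change 0.12, limma adjusted p = 0.0403), but the call was lost without any 1 of 9 of the 12 libraries. Of the 17 tested lamina genes 11 were lower and 6 higher, and 0 passed the adjusted p in limma, with 3 at an unadjusted p under 0.05 and 1 past the adjusted p in voom. These counts stand beside 15.5% of all tested genes at that unadjusted level and 2.64% past the adjusted p in voom. Of the 5 tested other type III and IV filament genes 4 were lower and 0 passed in limma, with 0 at an unadjusted p under 0.05 and 0 in voom.

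With Wnt3a pooled over menthol, 48.1% of all tested genes were lower, 14.2% had an unadjusted p under 0.05 and 2.44% passed in voom. Here 12 of the 15 mesenchymal genes were lower (median −0.03) and 0 passed in limma, with 4 at an unadjusted p under 0.05 and 2 past the adjusted p in voom. Of the 8 tested factors of the epithelial-mesenchymal transition 5 were higher, and Prrx1 passed at 0.14 (SE 0.029, limma adjusted p = 0.0414), from 28.7 ± 1.1 to 31.6 ± 1.52 FPKM (SD, n = 6). That call was lost without any 1 of 10 of the 12 libraries (adjusted p up to 0.108). All 5 tested pan-neuronal genes were lower (median −0.05) and 0 passed in limma, with 1 at an unadjusted p under 0.05 and 0 in voom.

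The genes whose levels followed each tested member most closely over the 12 libraries are given as a description, since the libraries share their groups and depth. For Vim they were Ogn (Pearson r 0.95, Spearman rho 0.95) and Eps8 (0.94 and 0.94). For Lmna one was Tmem98 (0.89 and 0.90), for Krt8 they were Trip4 (0.90 and 0.71) and Cdk19 (0.88 and 0.85), and for Des LOC688286 (0.91 and 0.96) and Cyp2u1 (0.90 and 0.93). Between the 4 members themselves Pearson r ran from −0.28 for Des with Lmna to 0.68 for Krt8 with Lmna.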

How the data were processed

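Total RNA of 12 ND7/23 libraries was sequenced as 150 bp paired-end reads. Per the study's methods and the submitters' processing notes, reads were cleaned with fastp, aligned with HISAT to mRatBN7.2 and counted with HTSeq. The versions of these tools are not given in the sources used here. The authors deposited FPKM per gene (one table), normalised for gene length and library size. All values came from this table, through its sample columns.

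FPKM is not a count. Each gene's FPKM steps gave back whole reads (tolerance 0.0001 reads, 100% of 21556 genes), in total 36914801 to 38837035 reads on genes per library. For 1804 genes above 0 in 1 library the read number is less certain. A count of 3 reads in a 1 kb gene is 0.0772 to 0.0813 FPKM, and counting limits cover counting error only. The 12 pairs of libraries within groups differed beyond sampling noise (lowest chi-square per degree of freedom 3.54, highest 7.61), and all 12 libraries entered as separate samples.

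limma 3.58.1 in R 4.3.3, with a mean-variance trend, was fitted to log2(FPKM + 0.1) of 11451 genes with a mean of at least 0.5 FPKM. All 4 groups entered 1 fit without a replicate block, and pooled contrasts set 6 libraries against 6. The study's own test was DESeq2 on counts. Alternatives were pseudocounts, minimums, median centring, pairs only, a replicate block, each library left out, and limma voom on the recovered reads. Named genes were the 10 members, the 3 highest of each list, list genes past the adjusted p, defining markers listed at 0 (there were none), and the 2 genes most like each tested member by Pearson r. The low markers (such as Cdh1, Dsp, Tubb3, Scn10a and Fap), Trpm8, Gfap, Ina and Lmnb2 were named after their values were seen. The members and lists were chosen with earlier results of these data known. Some listed or named genes are not reported here. Promoters were from RefSeq (GRCr8), another build than the alignment, so no promoter was joined to reads by position.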

Additional observations from a re-analysis of the deposited data

How the results depend on the processing

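The count of members called by the 2-fold rule was 0 in all 8 comparisons, and it did not change with the pseudocount, the FPKM minimum, median centring, voom or any library left out. Without the fold threshold it was 1 for menthol pooled over Wnt3a, which was Vim, and 0 for the other 7. Of 704 alternative values over 37 results, 646 were labelled unchanged and 9 changed sign. For a log2 change, unchanged meant the same direction and the same side of the threshold. The results also include the counts of members called and of members at the FPKM minimum, which have no direction. For these, unchanged meant an equal or similar count, and many were call counts that stayed at 0. With a library left out, the log2 change of Vim ran from −0.0020 to 0.043 for Wnt3a against control and from −0.024 to 0.0034 for Wnt3a pooled over menthol. That of Lmna with Wnt3a ran from −0.0067 to 0.038. Des ran from −0.0081 to 0.16 with menthol and from −0.090 to 0.081 with Wnt3a. None of these passed the threshold on either side of 0. The Vim change with menthol ran from −0.14 to −0.11 over the libraries left out, with adjusted p from 0.00842 to 0.0641. With voom the Vim changes for menthol added to Wnt3a (limma voom adjusted p = 0.00631) and for both agents against control (0.00689) passed the threshold that they missed in the FPKM fit. In voom 1.25% and 2.28% of tested genes passed in these comparisons. These 2 Vim changes also passed without Wnt3a replicate 3 (0.0412 and 0.0464), and the second did with only its 2 groups in the fit (0.0494). Of the other calls, Tagln, Ppl, Prrx1 and Krt7 for menthol against control were lost with no FPKM minimum, Prrx1 also with median centring, and Krt7 with only its 2 groups. The causes were not tested.

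Whether the replicate numbers pair the libraries is not stated in the labels and was not tested. The correlation of deviations between same-numbered libraries ran from −0.055 to 0.153 (median 0.013), with 1 of 18 over 0.1. Between differently numbered libraries of different groups it ran from −0.157 to 0.115 (median −0.006), with 1 of 36 over 0.1. A fit with the replicate block called 0 members by the 2-fold rule in every comparison, and gave the Vim change with menthol as −0.12 with an adjusted p of 0.0160. Over all genes the block moved the number past the adjusted p from 132 to 157 for menthol pooled over Wnt3a and from 92 to 135 for Wnt3a pooled over menthol. The voom fit gave 302 and 279, and the fit with no minimum 85 and 57. Depth limits the lowest genes most, since Krt18 and Krt19 were at or under 3 reads in all 12 libraries, Nefm in 9, Prph in 8 and Nefl in 5.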
